A study of Mus musculus with 3 samples.

Results

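The miR-290 to miR-295 cluster was represented by 14 features among the 1079 mouse miRNA features of the array. The members were chosen by name, as all mouse features with the names miR-290 to miR-295, whatever their letter or arm. The cluster itself was selected on earlier results of these data, in which the detection call of mmu-miR-294-3p was known. The call and the signal of miR-294-3p are therefore given as a description, with no test. Matrix vesicles (MVs) were isolated 3 times independently from the matrix laid down by MC3T3-E1 cells, an established mouse osteoblastic line from calvaria, and the RNA of each isolation was read on 1 miRNA array. All 3 arrays form 1 group of MVs from a single cell line, released with 500 units/mL collagenase and pelleted by ultracentrifugation. According to the labels the cells were grown in osteogenic medium with β-glycerophosphate, but according to the methods the cultures used for MVs lacked it. Arrays of parent cells or of pluripotent cells were not analysed here.

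A miRNA is cut from a hairpin whose strands give a 5p and a 3p product, the arms, and its seed (bases 2 to 8) does most of the pairing with target mRNAs. The miR-290 to miR-295 genes are known as the main miRNA cluster of mouse embryonic stem cells, where they are transcribed together and where miRNAs with their common seed promote the cell cycle and repress genes of differentiation. The cluster is also active in early embryos, germ cells and placenta, and is largely silent in differentiated cells. The cluster of miR-302 and miR-367, which carries the same seed in several 3p arms, is the other cluster best known from pluripotent and early embryonic cells. Osteoblasts are differentiated mesenchymal cells, and the comparison asks which cluster mates, if any, were detected in their MVs beside miR-294-3p.

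In the RefSeq annotation of GRCm38.p6, the 7 genes that give rise to the 14 features lie within 2.22 kb on chromosome 7. The genes Mir291a to Mir295 lie within the annotated span of the long non-coding RNA gene D7Ertd143e and within that of the protein-coding gene Nlrp12, and the table used does not tell exons from introns. The mature sequences of 13 of the 14 members were matched by name, with miR-290 and miR-292 listed there as miR-290a and miR-292a. The exception was miR-292-3p. The mature miR-294-3p lies at chr7:3220691-3220712 on the plus strand of GRCm38.p6. No assembly is stated in the deposited tables, which identify miRNAs by name alone.

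The 3p arms are shown first, since the only detected member is one of them and since they carry the seed for which the cluster is known. Sequences are from RefSeq (GRCm38.p6), 5′ to 3′, with the seed in capitals.
miR-294-3p: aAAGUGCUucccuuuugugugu
miR-291a-3p: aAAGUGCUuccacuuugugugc
miR-295-3p: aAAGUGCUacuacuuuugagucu
miR-291b-3p: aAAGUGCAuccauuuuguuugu
miR-290-3p: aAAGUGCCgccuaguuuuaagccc
miR-293-3p: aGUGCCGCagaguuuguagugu

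Within the cluster, miR-294-3p, miR-291a-3p and miR-295-3p shared the seed AAGUGCU. The seeds of miR-291b-3p and miR-290-3p differed from it only in their last base, whereas that of miR-293-3p began 2 bases further along the same motif. Counted from 1 at the 5′ end of miR-294-3p, with the base of miR-294-3p first, miR-291a-3p differed by C12A, U13C and U22C. By the same count, miR-291b-3p differed by U8A, C12A and G19U. Both thus matched miR-294-3p at 19 of its 22 bases. The 5p arms have other seeds, of which that of the partner strand is shown for comparison.
miR-294-5p: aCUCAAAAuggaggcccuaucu

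Only 1 of the 14 features, miR-294-3p, was called detected by the scanner software in any isolation. It was detected in isolations 2 and 3 and not in isolation 1. Its total gene signal, the summed brightness of its probes on a linear scale, was 32.5 ± 3.48 (scanner error) in isolation 2 and 11.7 ± 2.47 (scanner error) in isolation 3. The lowest detected signals of a mouse miRNA in isolations 1, 2 and 3 were 4.87, 4.39 and 4.41. Every detected signal was over 3 times its own error, and this error differs between features. The lowest detected signals are therefore no bound for other features. In isolation 1 miR-294-3p has no level, and every undetected feature carries the same placeholder of 0.1. Fewer MVs with a miRNA and fewer copies per MV cannot be told apart in these data.

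The 13 other members were undetected on all 3 arrays. These were all 7 of the 5p arms and, among the 3p arms, miR-290-3p, miR-291a-3p, miR-291b-3p, miR-292-3p, miR-293-3p and miR-295-3p. Detection in at least 1 isolation was thus 1 of 14 members (7.14%), against 16.7% of all mouse miRNAs. In at least 2 isolations it was again 1 of 14, against 15.3% of all mouse miRNAs. By array, 0 of 14 members were detected in isolation 1, where 7.97% of mouse miRNAs were. The count was 1 of 14 in isolation 2 (16.6% of mouse miRNAs) and 1 of 14 in isolation 3 (15.2%). Since miR-294-3p was known to be detected when the cluster was chosen, no test was made of these shares.

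**Figure D1:**
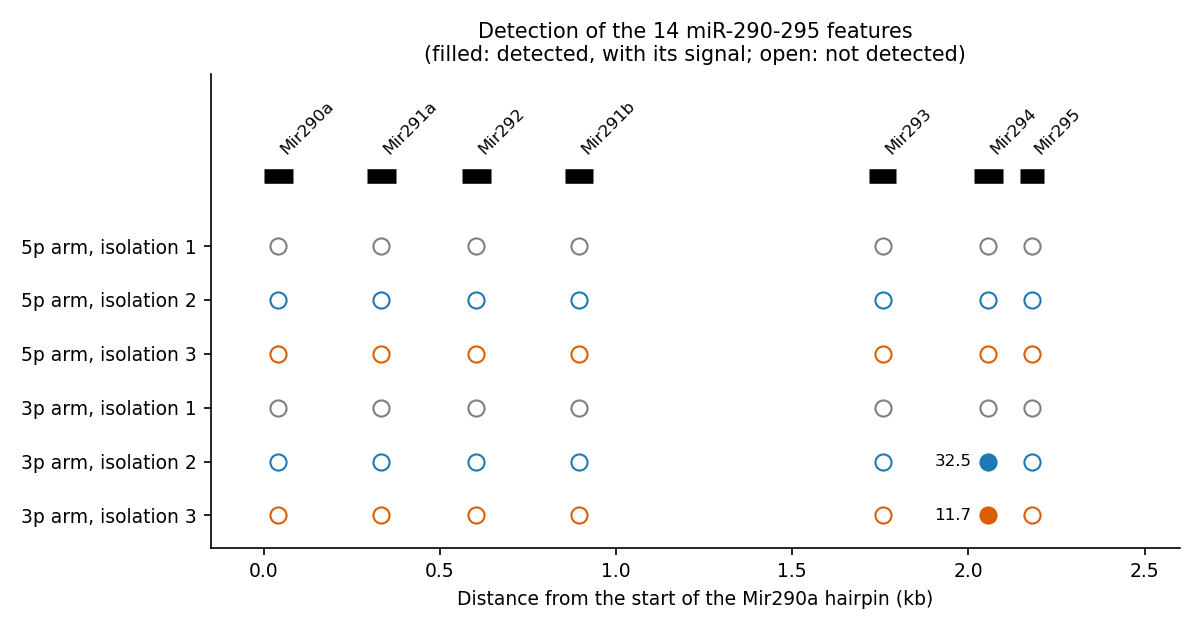
Detection of the 14 features of the miR-290 to miR-295 cluster along the cluster. The horizontal axis gives the distance from the start of the Mir290a hairpin in kb, black boxes are the hairpins, each row is 1 arm in 1 isolation, filled circles are detected features with their total gene signal, and open circles are undetected ones. Only miR-294-3p is filled, at 32.5 in isolation 2 and 11.7 in isolation 3.

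The arm that was detected was compared with the arms of other miRNAs on the same arrays. In the cluster, 0 of 7 of the 5p arms and 1 of 7 of the 3p arms were detected. Among all mouse miRNAs, 18.2% of 445 features for 5p arms and 12.4% of 450 features for 3p arms were detected in at least 1 isolation. For 384 miRNAs both arms had a feature, and at least 1 arm was detected for 99 of them. Both arms were seen in 8 of these 99 (8.08%), only the 5p arm in 54 and only the 3p arm in 37. A 3p arm without its 5p partner, as for miR-294, was therefore the more frequent case for a detected 3p arm on these arrays.

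Detection of neighboring genes was described for clusters of miRNA genes on 1 strand, at most 10 kb apart, with at least 6 features on the array. There were 18 such clusters, and 12 had at least 1 detected feature. In these 12 the share of detected features ranged from 4.05% to 50%, with a median of 29.2%. The miR-290 to miR-295 cluster, at 7.14%, was above only 1 of them, the imprinted cluster from Mir379 to Mir3072 (3 of 74 features). At least 2 features were detected in 10 of the 12 clusters. The remaining pair, with a single detected feature each, was the miR-290 to miR-295 cluster and the cluster of miR-302 and miR-367.

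Among the other clusters with a detected feature, that from Mir17 to Mir92-1, known for promoting proliferation, had 3 of 12 features detected. It was 2 of 11 from Mir363 to Mir106a, 2 of 10 from Mir500 to Mir532, and 2 of 6 both from Mir25 to Mir106b and from Mir341 to Mir370. The clusters from Mir23a to Mir24-2 and from Mir23b to Mir24-1 had 3 of 6 each, as did the other two clusters of 6 features that had any detected. A mature miRNA with several genes was counted in each of their clusters, so these counts are not independent. No test was made of the differences between clusters.

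**Figure D2:**
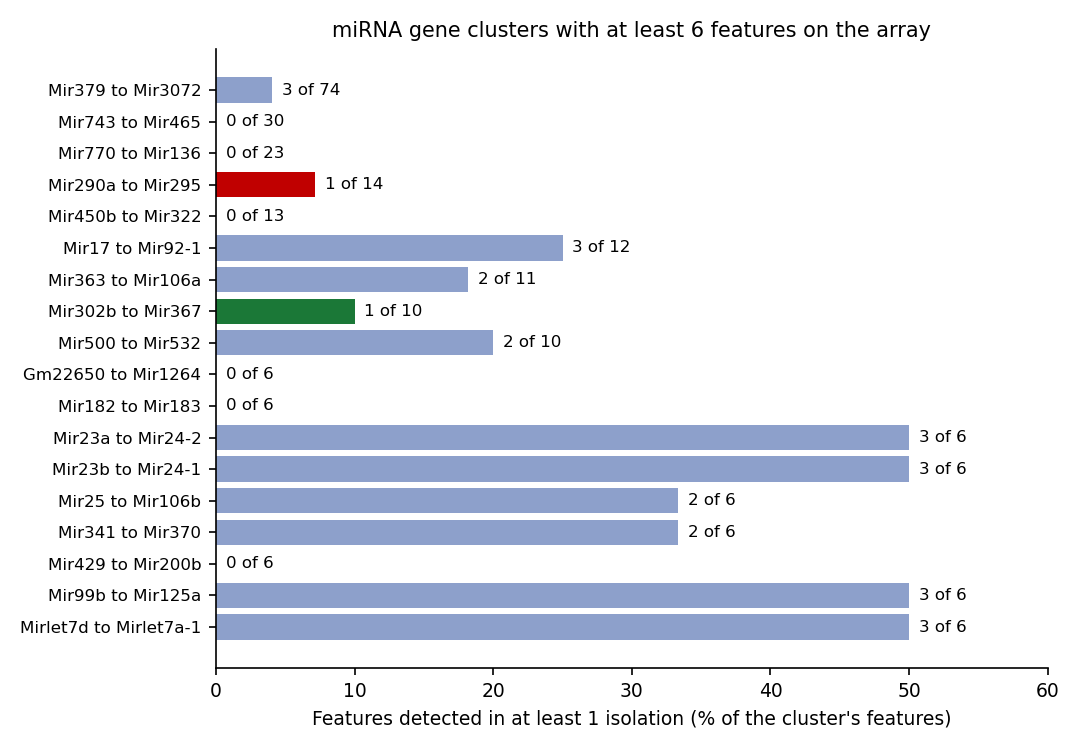
Share of features detected in at least 1 isolation (horizontal axis, %) for the 18 clusters of miRNA genes with at least 6 features on the array, with the counts beside the bars. The miR-290 to miR-295 cluster (red) has 1 of 14 features detected and the cluster of miR-302 and miR-367 (green) 1 of 10, while the other 10 clusters with a detected feature have 2 or 3.

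The cluster of miR-302 and miR-367 gave a similar picture. Of its 10 features, only miR-302c-5p was detected (10%, against 16.7% of all mouse miRNAs). The signal of miR-302c-5p was 14.9 ± 2.10 (scanner error) in isolation 2 and 11.0 ± 1.64 in isolation 3. It was undetected in isolation 1. All 5 3p arms of the cluster, miR-302a-3p, miR-302b-3p, miR-302c-3p, miR-302d-3p and miR-367-3p, were below detection on every array. They are the markers of pluripotent cells used here. Among all mouse miRNAs, 12.4% of features for 3p arms were detected in at least 1 isolation. The detected arm does not have the seed of the cluster, as its sequence shows beside that of miR-302b-3p (seeds in capitals).
miR-302c-5p: gCUUUAACaugggguuaccugc
miR-302b-3p: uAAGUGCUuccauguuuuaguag

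The markers of other cells set these values in context. In the list for mesenchymal and osteoblast lineage cells, 7 of 9 features were detected in isolations 2 and 3 and 5 of 9 in isolation 1, and miR-143-3p and miR-145a-5p were undetected. The log2 signals of miR-125b-5p were 5.57, 8.66 and 8.08 in isolations 1, 2 and 3. Those of miR-21a-5p were 3.34, 7.68 and 7.37. Of the lists for red blood cells and serum (2 features), leukocytes (3) and liver (1), 0 features were detected. Since only 16.7% of all mouse miRNAs were detected in at least 1 isolation, lists this short say little about these sources. The 7 negative control features were undetected on all 3 arrays, whereas 9 of 57 features for miRNAs of mouse viruses (15.8%) were called detected in at least 1 isolation. The part of cross-hybridization in any of these calls was not tested.

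On the log2 scale, the signal of miR-294-3p was 5.02 in isolation 2 and 3.55 in isolation 3, with a mean of 4.29 ± 1.04 (SD, n = 2). Ordered by signal, it was at place 94 of 179 detected mouse miRNAs in isolation 2 and at place 127 of 164 in isolation 3. It thus lay near the middle of the detected miRNAs in isolation 2 and among the dimmer ones in isolation 3. For comparison, miR-302c-5p was as bright as or brighter than 20.7% of the detected miRNAs in isolation 2, itself included, and 21.95% in isolation 3, where the values of miR-294-3p were 48.0% and 23.2%. Since probes respond unequally to their targets, a place says nothing of the amount of RNA.

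The signal of miR-294-3p was 9.32 times its own scanner error in isolation 2 and 4.76 times in isolation 3. The median of this ratio over detected mouse miRNAs was 8.59 and 7.79, respectively. A lower ratio than that of miR-294-3p was found for 96 of 179 detected miRNAs in isolation 2 and for 34 of 164 in isolation 3.

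**Figure D3:**
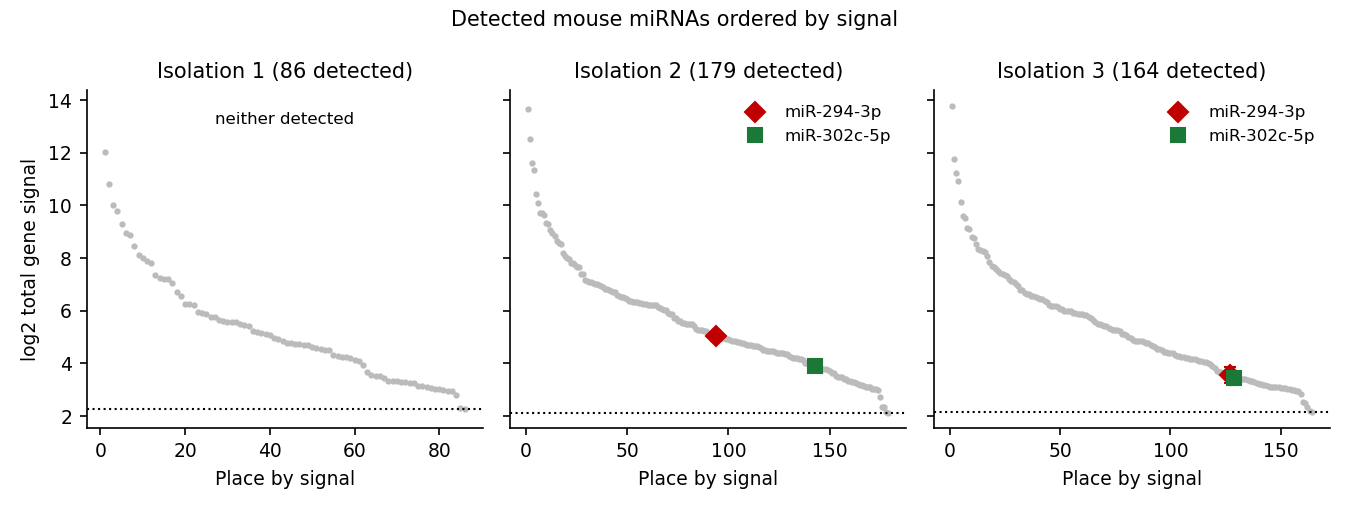
Log2 total gene signal (vertical axis) of all detected mouse miRNAs in order of signal (horizontal axis) in each isolation, with miR-294-3p (red diamond) and miR-302c-5p (green square) marked, scanner errors as bars and the lowest detected signal as a dotted line. Neither was detected in isolation 1, and miR-294-3p is at place 94 of 179 in isolation 2 and 127 of 164 in isolation 3.

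The signal of miR-294-3p differed between the isolations that detected it. Isolation 3 minus isolation 2 was -1.47 on the log2 scale, with a scanner error of 0.34, so that the signal in isolation 2 was 2.76 times that in isolation 3. Over the 164 mouse miRNAs detected in both, the median of isolation 3 minus isolation 2 was -0.39, with an SD of 0.44 across miRNAs. Some of the 179 miRNAs detected in isolation 2 were undetected in isolation 3, and these have no difference and were not ranked. Of the 164 that were ranked, only 5 had a larger fall than miR-294-3p. These were miR-3097-5p (-1.87), miR-670-5p (-1.73), miR-466a-5p (-1.71), miR-297c-5p (-1.67) and miR-202-3p (-1.59). The difference for miR-302c-5p was -0.44, close to the median. Another scaling of the arrays moved the difference of miR-294-3p from -1.47 to -0.94 and -0.93 with 90th percentile shifts and to -0.55 after quantile normalization. With 1 array per isolation, the difference has no replicate check.

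**Figure D4:**
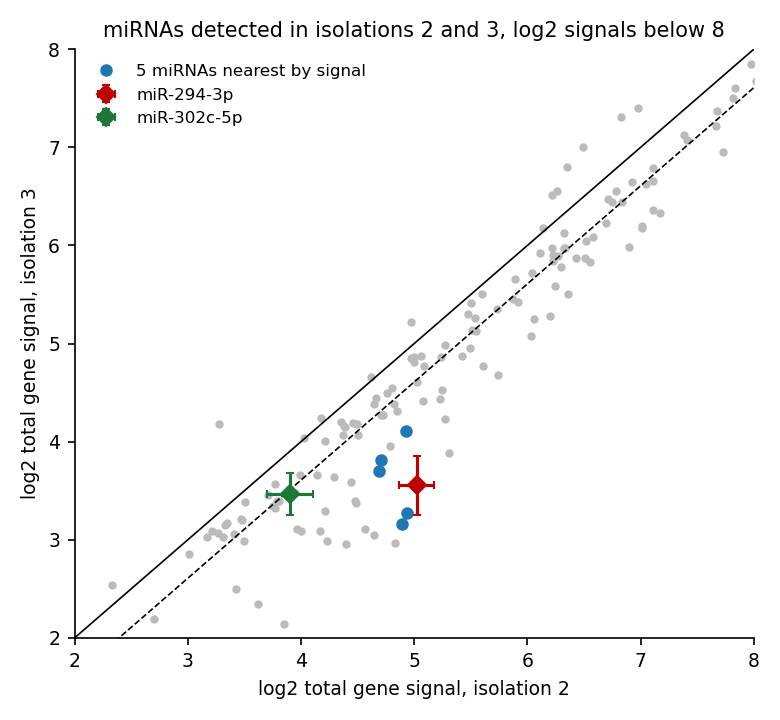
Log2 total gene signal in isolation 2 (horizontal axis) and isolation 3 (vertical axis) of the mouse miRNAs detected in both, for log2 signals below 8. The solid line marks equal signals, the dashed line the median difference of -0.39, and bars are scanner errors. The point of miR-294-3p (red) lies at -1.08 log2 units from the dashed line, and that of miR-302c-5p (green) lies close to the line.

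The pattern of miR-294-3p over the isolations was shared by 79 other mouse miRNAs that were detected in isolations 2 and 3 only. The 5 nearest to it, by Euclidean distance of the log2 signals of these 2 arrays, were miR-297c-5p (0.30), miR-877-3p (0.37), miR-181b-5p (0.41), miR-670-5p (0.41) and miR-100-5p (0.56). Signals of miR-297c-5p were 30.6 and 9.64, and those of miR-181b-5p were 26.1 and 14.02. Likeness over 2 arrays is a description only. None of these 5 miRNAs is a member of the cluster.

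The seed was followed outside the cluster. Of the mouse miRNAs on the array whose mature sequence was matched (870 of 1079), miR-302b-3p and miR-302d-3p had the same bases 2 to 8 as miR-294-3p, and 0 of these 2 were detected. With the cluster mates miR-291a-3p and miR-295-3p, 0 of 4 other miRNAs with this seed were detected. Over all 869 matched miRNAs other than miR-294-3p, 15.8% were detected in at least 1 isolation. The 7 bases of the seed at any place were found in 10 miRNAs outside the cluster, of which 2 were detected (20%). These were miR-20a-5p, of the cluster from Mir17 to Mir92-1, and miR-106b-5p, both known for promoting proliferation, in which the motif starts at base 3. They are shown with the shared 7 bases in capitals.
miR-20a-5p: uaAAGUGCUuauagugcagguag
miR-106b-5p: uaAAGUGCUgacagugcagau

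Like miR-294-3p, both were undetected in isolation 1. The signal of miR-20a-5p was 13.1 in isolation 2 and 11.0 in isolation 3, and that of miR-106b-5p was 15.5 and 11.1. Their relatives miR-17-5p, miR-20b-5p and miR-93-5p, with the motif at the same place, were below detection.

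Overall likeness to miR-294-3p was low among the detected miRNAs. The closest sequences, miR-291a-3p and miR-291b-3p with 19 matched bases in an ungapped alignment, were both undetected. Outside the cluster the highest match was 14 bases, in miR-302b-3p, miR-350-5p and miR-381-5p, of which 0 were detected. A further 9 miRNAs outside the cluster tied at 13 bases, and 1 of them, miR-539-5p, was detected, with a signal of 20.8 in isolation 2 only.

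The bases at the 3′ end of miR-294-3p, in contrast, were found in bright miRNAs, though mostly not at their 3′ end. This comparison was chosen after the values were seen, and no test was made of it. The last 6 bases of miR-294-3p are GUGUGU. Searched on the mature strand at any place, this motif was in 14 of the 870 sequences (1.61%). Names without a matched sequence, among them the detected miR-466a-5p, miR-466i-5p and miR-669e-5p, were not searched, so the count may be incomplete. Of the 13 cluster members with a sequence, only miR-294-3p held the motif. The substitution U22C removes it from miR-291a-3p, and G19U removes it from miR-291b-3p. Of the 13 other miRNAs with the motif, 10 were detected in at least 1 isolation (76.9%), against 127 of 856 without it (14.8%). Their signals in isolation 2 ranged from 20.8 for miR-539-5p to 1090 for miR-574-5p. They included miR-1187, miR-3082-5p, miR-669n, miR-32-3p, miR-672-5p, miR-466j, miR-206-3p and miR-3097-5p, and 8 of the 10 were above miR-294-3p in isolation 2. The undetected miRNAs with the motif were miR-466k, miR-496a-5p and miR-1197-5p. Only 3 of the 13 ended in the motif, and all 3 were detected. By name, miR-466j and miR-466k are of the same family, so the 13 are not all independent.

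The detected miRNAs with the motif were also compared with miR-294-3p across isolations. In isolation 1, where miR-294-3p was undetected, 8 of the 10 were detected. These 8 were the ones brighter than miR-294-3p in isolation 2. The others, miR-3097-5p (28.5) and miR-539-5p (20.8), were dimmer than miR-294-3p in isolation 2 and, like it, undetected in isolation 1. Of the 9 that were detected in both isolations 2 and 3, only miR-3097-5p had a larger fall between them than miR-294-3p. The signals of all 9 fell by more than the median of -0.39 over mouse miRNAs detected in both isolations. The remaining miR-539-5p was undetected in isolation 3 and has no level there. With no matched sequence, miR-466a-5p (-1.71) was not searched for the motif. The array tables give no probe sequences, and whether related RNA contributed to the signal of miR-294-3p was not tested.

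**Figure D5:**
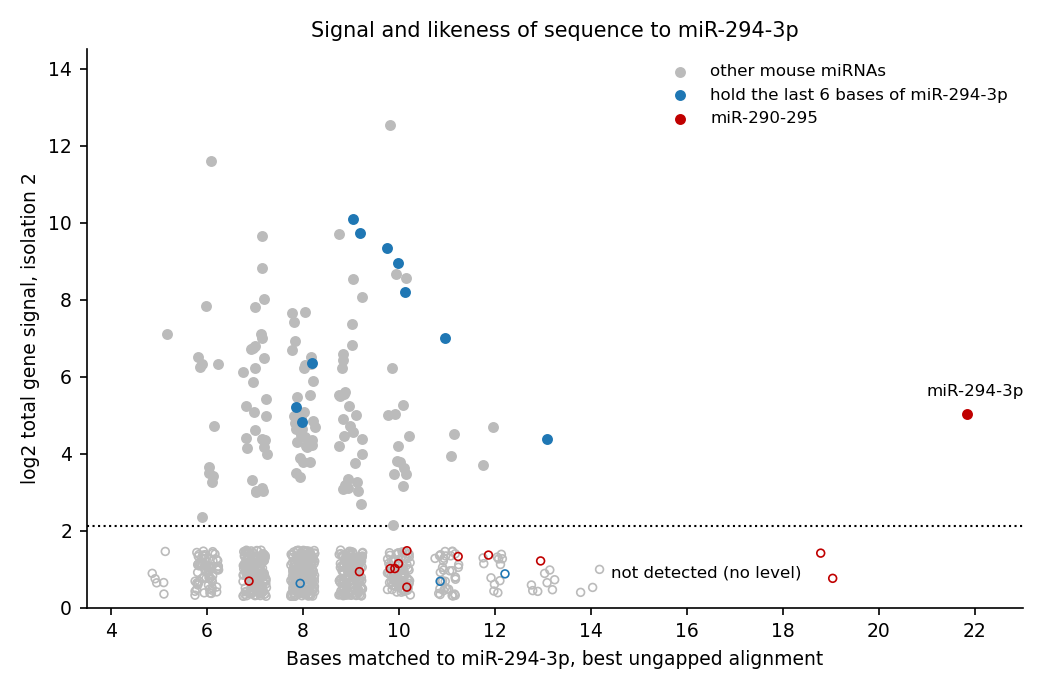
Log2 total gene signal in isolation 2 (vertical axis) against the number of bases matched to miR-294-3p in the best ungapped alignment (horizontal axis, spread slightly within each number) for 870 mouse miRNAs. Open circles below the dotted line, the lowest detected signal, are undetected miRNAs drawn without a level. The 2 closest sequences, at 19 bases, are undetected members of the cluster, while 10 of 13 other miRNAs with the last 6 bases of miR-294-3p (blue) are detected.

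The GC content of miR-294-3p was 40.9%, within the range of 31.8% to 59.1% over the 13 members with a sequence (median 45.5%). The median over 138 detected mouse miRNAs with a sequence was 51.1%, and over 732 undetected ones it was 50%.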

How the data were processed

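Total RNA (100 ng per isolation) of MVs was labeled with Cy3 and hybridized to a SurePrint G3 mouse miRNA array, 1 for each of 3 isolations. Per the submitters' processing notes, arrays were read with Agilent Feature Extraction 10.10.1.1. The authors deposited for each of 1157 features a detection call, a control type and an intensity (the total gene signal on a linear scale) with its error, not normalized between arrays. Undetected features are set to 0.1 there, with an error of 1. Intensities were taken to log2 here without a shift, and the number of arrays limits the precision. The arrays form 1 group, so nothing was tested and values are means ± SD or scanner errors.

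The members and lists were chosen with earlier results of these data known. The miRNAs named are the members, the features of miR-302 and miR-367, those with the seed of miR-294-3p, the most alike by ungapped match (with ties) and the 5 nearest by signal, gene clusters with at least 6 features, up to 10 of those with a detected feature, and cell marker lists. Of these lists, mmu-miR-486a-5p had no feature. Falls larger than that of miR-294-3p and miRNAs with the GUGUGU motif were named after their values were seen. Sequences and positions are from RefSeq (GRCm38.p6). Of 1079 names, 870 matched. The functions were tested on simulated data. Python 3.11.15, numpy 2.4.6, pandas 2.3.3 and matplotlib 3.10.9 were used.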

Additional observations from a re-analysis of the deposited data

How the results depend on the processing

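The count of detected members (1 of 14) and of detected miR-302 and miR-367 features (1 of 10) were the same without any 1 isolation. Requiring a signal over 3 times its error or above the negative controls could not change them, since every detected mouse miRNA met both. The count of members detected in at least 2 isolations, 1, went from 0 to 1 when single isolations were left out, since miR-294-3p was detected in exactly 2. The mean log2 signal of miR-294-3p, 4.29, depends on the zero of the scale. Setting the 90th or the 75th percentile of all mouse miRNAs to 0 gave -0.16 or 7.61, taking these percentiles over miRNAs seen in all isolations gave -4.999 or -3.41, and quantile normalization, which averages in the undetected features, gave 1.81. Leaving out single isolations gave 3.55 to 5.02. The difference between isolations 3 and 2, -1.47, was -0.94 and -0.93 with both 90th percentile shifts and -0.55 after quantile normalization. With the 75th percentile over miRNAs seen in all isolations it was -1.13, and over all mouse miRNAs, where that percentile is the signal of undetected miRNAs, it could not change. The number of detected miRNAs outside the cluster with the seed, 0, was 2 with the 7 bases at any place. The number with the last 6 bases of miR-294-3p, 10, was 3 of 3 with these at the 3′ end, 11 of 30 with 5 bases and 8 of 9 with 7 bases, settings chosen after seeing the data. The percentile place of miR-294-3p was between 23.2 and 48.0 when single isolations were left out. No paired analysis was possible because there is only 1 group of arrays. The arrays give no level for undetected features.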
